A study of Saccharomyces cerevisiae with 3 samples.

Results

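The iron uptake regulon of Saccharomyces cerevisiae was described here by 10 genes, taken as the probe sets whose platform gene symbol was FET3, FTR1, SIT1, ARN1, ARN2, ENB1, FIT1, FIT2, FIT3 or AFT1. A probe set is a group of short probes that together report 1 transcript or a few near-identical ones. Each of the 10 genes had 1 probe set, so 10 of the 10928 probe sets in the table, and 10 of the 5498 that carry an S. cerevisiae gene name, were members. None of the 10 probe set IDs ended in _s_at or _x_at, the suffixes given to sets that can match several transcripts, and 0 probe sets carried a lower-case form of a member's symbol.

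RNA from the yeast was hybridised to 3 arrays, of 100% baseline RNA, of 99% baseline with 1% spike, and of 90% baseline with 10% spike. Neither the nature of the spike nor whether the baseline RNA of the 3 arrays came from 1 extract is given in the sources used here. The yeast on every array was of the W303 background and MAT-alpha mating type and carried cdc15-2, an allele that blocks exit from mitosis at the restrictive temperature. It was sampled after 340 minutes of growth at 23 °C in minimal medium, counted from its release from that temperature. The iron content of that medium is not given in the sources used here, and no array is labelled with another iron supply. Each group was 1 array, so no value below has an error, no difference has a replicate check and no test was possible.

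In budding yeast the transcription activator Aft1 switches on the iron regulon when iron is scarce. Iron then enters by a reductive route, in which surface reductases make ferrous iron that the ferroxidase Fet3 and the permease Ftr1 take up together, and by a siderophore route, in which transporters of the Arn family import whole iron chelates made by other microbes. The cell wall mannoproteins Fit1, Fit2 and Fit3 help to hold siderophore iron at the surface.

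The strain is labelled MAT-alpha, and the 4 alpha-specific markers lay at 13.75 to 14.64 (log2) in the baseline array. The 6 markers of the opposite mating type lay at 9.10 to 10.99, up to the middle of the S. cerevisiae levels, and signals of different probe sets do not compare transcript numbers. The median over S. cerevisiae probe sets was 10.81 without spike, 10.82 at 1% spike and 10.84 at 10% spike. The signal is an average over the culture, so fewer cells expressing a gene and less RNA per cell cannot be told apart.

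The 10 genes lay between 9.49 and 12.49 without spike, and the reductive pair gave the brightest signals among them. In each of the 3 arrays, 4 of 4 siderophore transporter genes and 3 of 3 FIT genes lay below both reductive genes. The mean level of the reductive pair was 11.93 without spike, 11.95 at 1% spike and 12.00 at 10% spike, and that of the 4 siderophore transporter genes was 10.29, 10.32 and 10.33 in the same order. The lowest reductive signal exceeded the highest siderophore signal by 0.48 without spike, 0.44 at 1% spike and 0.50 at 10% spike. Signals of different probe sets also depend on how well their probes bind, so this is an order of signals and not of transcript numbers. Without spike the 4 siderophore transporter genes, FIT1, FIT2 and AFT1 lay within the range of the 6 opposite mating type markers (9.10 to 10.99). FIT3 lay just above that range, at 11.00. A signal in that range does not by itself show that a gene was expressed.

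FET3 (YMR058W, probe set 1773089_at), which encodes the copper-dependent ferroxidase, was the brightest of the 10 genes, at 12.49 in all 3 arrays. Its level lay above 83.3% of S. cerevisiae probe sets without spike, 83.2% at 1% spike and 83.0% at 10% spike. FTR1 (YER145C, 1777853_at), which encodes the permease partner of Fet3, was at 11.37 without spike, 11.41 at 1% spike and 11.50 at 10% spike. The Fet3 and Ftr1 proteins act as a complex. Between the 10% array and the baseline array FTR1 differed by 0.13 and FET3 by 0 in the deposited values. With arrays centred on their S. cerevisiae median FTR1 differed by 0.103 and FET3 by -0.026.

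The 4 siderophore transporter genes ranged from 9.71 to 10.89 without spike. SIT1 (YEL065W, 1772622_at), also called ARN3, encodes a ferrioxamine transporter and was the brightest of them, at 10.89 without spike, 10.97 at 1% spike and 11.00 at 10% spike. ENB1 (YOL158C, 1774022_at), also called ARN4, encodes the enterobactin transporter and was at 10.46 without spike, 10.46 at 1% spike and 10.47 at 10% spike. ARN1 (YHL040C, 1773278_at), whose product takes up ferrichrome, was at 10.08 without spike and at 10.16 in both spiked arrays. ARN2 (YHL047C, 1776679_at), whose product transports triacetylfusarinine, was the dimmest transporter gene, at 9.71 in all 3 arrays. SIT1 lay above 52.0% of S. cerevisiae probe sets in the baseline array, ENB1 above 40.8%, ARN1 above 31.3% and ARN2 above 23.7%. ARN1 and ARN2 lie close together, with 6 annotated genes between them in the RefSeq annotation of assembly R64, and at 10% spike ARN1 differed from the baseline array by 0.077 and ARN2 by 0.

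The 3 FIT genes included both mid-range signals and the dimmest signal of the 10 genes. FIT3 (YOR383C, 1777033_at) was at 11.00 without spike, 11.00 at 1% spike and 11.07 at 10% spike. FIT2 (YOR382W, 1776583_at) was at 10.83 without spike, 10.83 at 1% spike and 10.84 at 10% spike. FIT1 (YDR534C, 1771344_at) was at 9.49 in all 3 arrays, above 19.6% of S. cerevisiae probe sets in the baseline array. FIT2 and FIT3 are neighbours, with 0 annotated genes between them in that annotation. At 10% spike FIT3 differed from the baseline array by 0.07, FIT2 by 0.004 and FIT1 by 0.

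AFT1 (YGL071W, 1774570_at), which encodes the activator itself, was at 10.54 without spike, 10.54 at 1% spike and 10.82 at 10% spike. It thus lay above 42.8% of S. cerevisiae probe sets without spike, 42.7% at 1% spike and 49.4% at 10% spike.

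**Figure D1:**
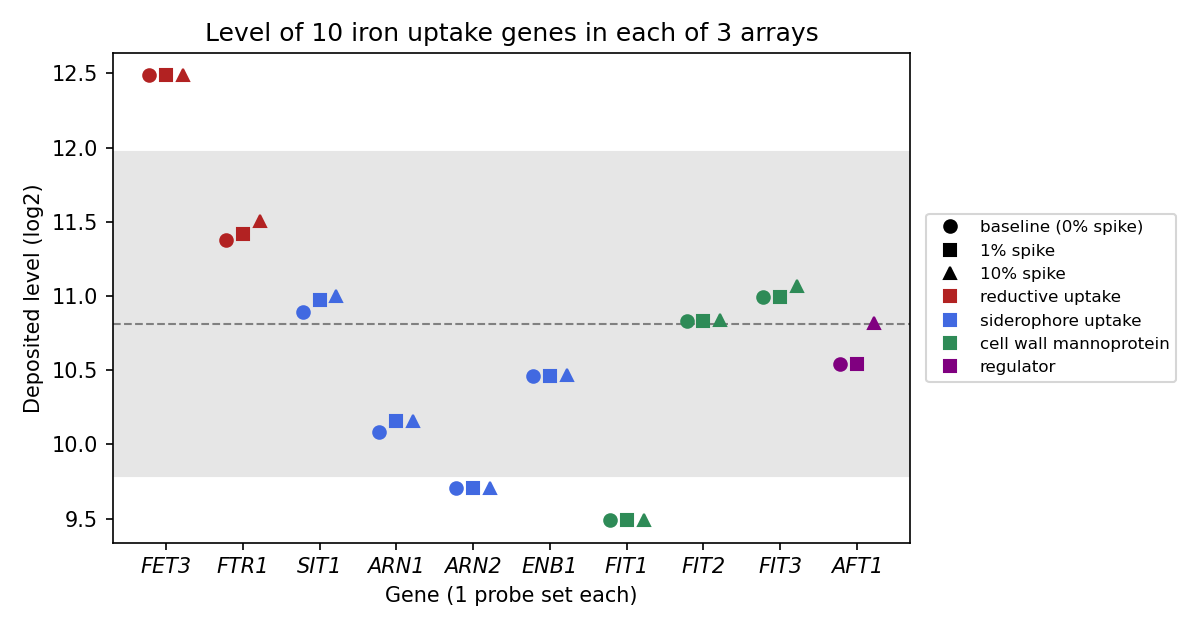
Deposited level (log2) of each of the 10 genes, 1 probe set each, in the baseline array (circles), the 1% array (squares) and the 10% array (triangles), coloured by role. The dashed line and grey band are the median (10.81) and quartiles (9.79 and 11.97) of the 5498 S. cerevisiae probe sets in the baseline array. FET3 lies above the band at 12.49, ARN2 and FIT1 lie below it, and AFT1 shows the widest spread between arrays.

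The order of the 10 signals was the same in each of the 3 arrays. From bright to dim it ran FET3, FTR1, FIT3, SIT1, FIT2, AFT1, ENB1, ARN1, ARN2 and FIT1. The widest step was that between FET3 and FTR1, 1.11 without spike, 1.07 at 1% spike and 0.98 at 10% spike. The narrowest were 0.058 between SIT1 and FIT2 without spike, 0.023 between FIT3 and SIT1 in the 1% array and 0.017 between FIT2 and AFT1 in the 10% array. With 1 array per group, no spread between replicates was available to say which neighbours in this order differ. All 3 arrays held mostly baseline RNA on the same probes, so their shared order does not count as 3 independent readings.

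Adding 1% spike went with very small differences in the iron uptake genes. Set against the baseline array, 3 of the 10 genes were higher in the 1% array, SIT1 by 0.08, ARN1 by 0.077 and FTR1 by 0.04, and 7 were identical to 3 decimals (-0.006 each with arrays centred on their S. cerevisiae median). Over all S. cerevisiae probe sets 22.6% were higher, 62.9% identical and 14.5% lower in this comparison, so the split of the 10 genes was near that of the transcriptome. None of the 10 reached 2-fold in either direction (0% of S. cerevisiae probe sets did) and 0 were higher by 0.1 or more, a 1.07-fold difference (against 0.746% of the S. cerevisiae probe sets) or lower by as much (1.24%).

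The 2 siderophore transporter genes that differed, SIT1 and ARN1, lay just outside the middle 95% of S. cerevisiae probe sets, which ran from -0.064 to 0.066. Among the 1384 other S. cerevisiae probe sets within 0.5 of the baseline level of SIT1, 1.30% were at least as high. Among the 1236 around ARN1, 2.10% were. For FTR1 the share was 7.04%. In either direction 1.73% differed by as much as SIT1, 3.16% by as much as ARN1 and 9.39% by as much as FTR1. AFT1, FET3, ARN2, ENB1 and the 3 FIT genes had the same value as in the baseline array at this spike share.

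AFT1, the regulator, had the largest difference of the 10 genes in the 10% array. It was higher by 0.28 than in the baseline array (1.21-fold), against 0.13 for FTR1 (1.09-fold), 0.11 for SIT1 (1.08-fold), 0.077 for ARN1 and 0.07 for FIT3 (1.05-fold each). ENB1 and FIT2 differed by 0.006 and 0.004, and FET3, ARN2 and FIT1 by 0. In the deposited values 7 of the 10 genes were thus higher, 3 identical and 0 lower (45.1%, 27.7% and 27.2% of S. cerevisiae probe sets). When each array was centred on its S. cerevisiae median, 5 were higher and 5 lower (31.9% and 67.5% of S. cerevisiae probe sets), because ENB1 and FIT2 turned to -0.021 and -0.022 and the 3 identical genes to -0.026. The 5 that were higher under every processing setting tried were AFT1, FTR1, SIT1, ARN1 and FIT3.

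**Figure D2:**
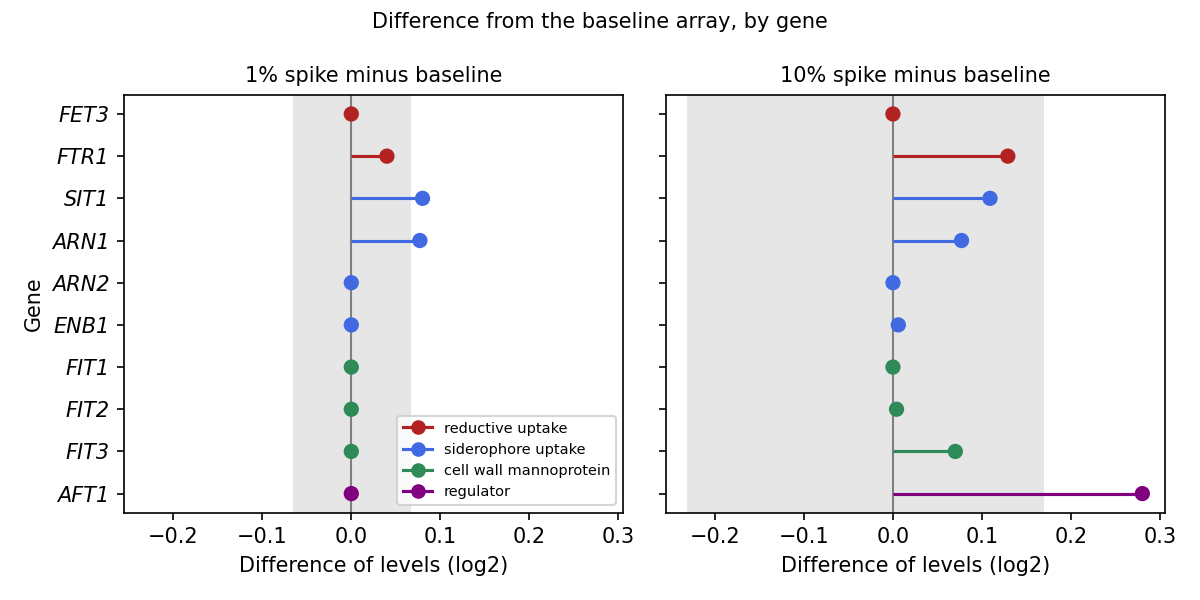
Difference of log2 levels from the baseline array for each of the 10 genes, in the 1% array (left) and the 10% array (right), as 1 value per gene, coloured by role. The grey band is the middle 95% of the 5498 S. cerevisiae probe sets (-0.064 to 0.066 on the left, -0.23 to 0.17 on the right). SIT1 and ARN1 lie just past the band at 1% spike, and AFT1 alone lies past it at 10% spike, at 0.28.

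None of the 10 genes reached 2-fold in the 10% array (0.0546% of S. cerevisiae probe sets did, in either direction). AFT1, FTR1 and SIT1 were higher by 0.1 or more, 3 of 10 genes (9.49% of S. cerevisiae probe sets), and 0 were lower by as much (8.09%). SIT1 lay under 0.1, at 0.076 to 0.096, in the 3 rescaled settings (quantile normalization over again, centred arrays, and removal of the trend with level). The median difference of the 10 genes was 0.038, and that of all S. cerevisiae probe sets was 0. Without AFT1 the median of the other 9 genes was 0.006.

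The AFT1 value lay past the middle 95% of S. cerevisiae probe sets, which ran from -0.23 to 0.17, and the other 9 genes lay inside it. Of the 5498 S. cerevisiae probe sets, 21 (0.382%) were higher by 0.28 or more, AFT1 included, and 94 were lower by as much. Among the 1407 others within 0.5 of the baseline level of AFT1, 0.355% were at least as high, and 0.782% differed by as much in either direction. The share at least as high was 6.62% for FTR1, 11.1% for SIT1, 17.1% for ARN1 and 22.0% for FIT3. In either direction the share was 8.63% for FTR1, 14.2% for SIT1, 25.3% for ARN1 and 28.3% for FIT3. The 10% array also differed from the others at its hybridisation controls: its 27 control sets (bioB, bioC, bioD, cre), sequences commonly added in fixed amounts before hybridisation, were higher there than in the baseline array by a median of 0.51 (27 of 27). At 1% spike their median was 0.055. Their part in the AFT1 value was not tested.

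**Figure D3:**
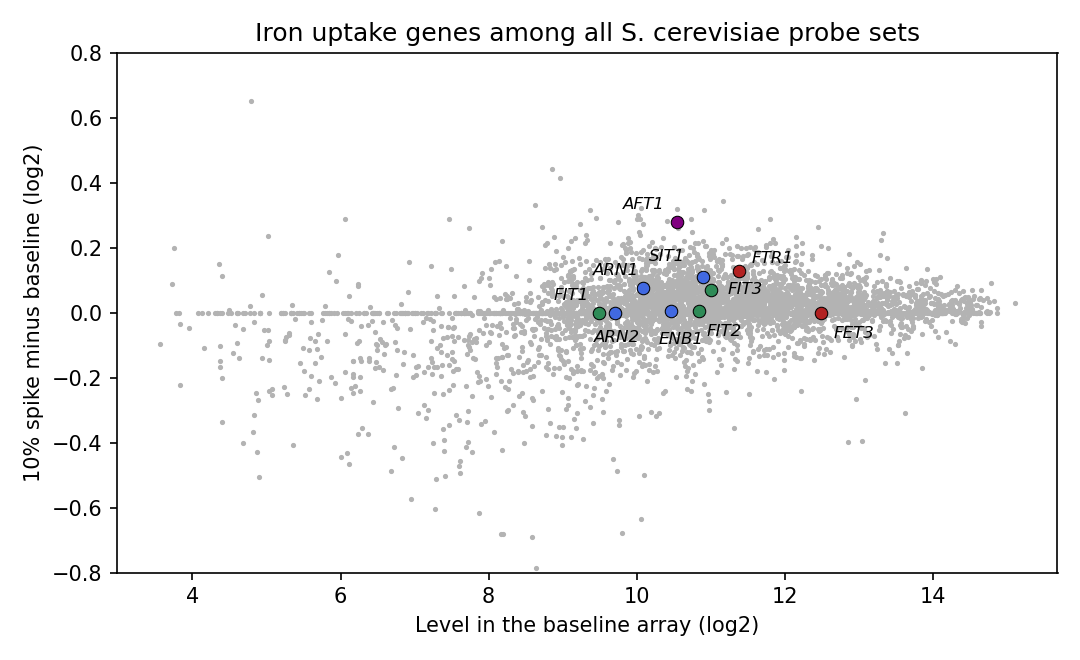
Difference between the 10% array and the baseline array (log2) against the level in the baseline array (log2) for the 5498 S. cerevisiae probe sets (grey) and the 10 iron uptake genes (coloured by role: red reductive, blue siderophore, green FIT, purple AFT1). The vertical axis ends at 0.8 in both directions, which leaves 5 grey points outside. AFT1 lies at the upper edge of the points of its level, and the other 9 genes lie within the cloud.

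Between the 10% array and the 1% array the AFT1 difference was again 0.28, since its values in the 1% array and the baseline array were identical. AFT1 was the single member higher by 0.1 or more (6.78% of all S. cerevisiae probe sets), with 0 lower by as much (6.55%) and 0 at 2-fold (0.0546%). AFT1, singled out as the largest of the 10 members, was the 7th highest of the 5498 S. cerevisiae probe sets in this comparison. Of the 1407 probe sets of like level 0% were as high, and 0.284% differed by as much in either direction. FTR1 differed by 0.089, FIT3 by 0.07 and SIT1 by 0.029. ARN1, ARN2, FET3 and FIT1 were identical in both spiked arrays. In all, 6 members were higher, 4 identical and 0 lower (41.2%, 34.6% and 24.2% of S. cerevisiae probe sets), and with centred arrays 4 were higher and 6 lower (30.7% and 68.8%).

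The 10 genes fell into 4 patterns over the 3 arrays. FTR1 and SIT1 were higher at 1% spike and again at 10% spike, a pattern of 14.8% of S. cerevisiae probe sets. ARN1 was higher at 1% spike with no further difference at 10% (4.80%). AFT1, ENB1, FIT2 and FIT3 differed at 10% spike only (22.9%). FET3, ARN2 and FIT1 were identical in all 3 arrays (25.9%). In the deposited values no member was lower at either step, which also held for 68.5% of S. cerevisiae probe sets. These patterns hold for the deposited values only. After quantile normalization over again or with centred arrays 0 members were identical at 1% or 10% spike to the baseline array, and with centred arrays 7 of 10 were lower at 1% spike (80.3% of S. cerevisiae probe sets).

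By the Euclidean distance of their 3 deviations from their own mean, the S. cerevisiae probe sets most like AFT1 were those of CDA2, YCR108C and VHS1. CDA2, a chitin deacetylase gene, was at 6.05 without spike, 6.05 at 1% spike and 6.34 at 10% spike, a distance of 0.0073. YCR108C was at 7.47, 7.47 and 7.76 in the same order (distance 0.0082), and VHS1, a protein kinase gene, was at 9.45, 9.48 and 9.75 (distance 0.019). Likeness over 3 arrays rests on 3 values per gene and describes these arrays only. Of the 21 probe sets as high as AFT1 in the 10% array, 3 were identical in the 1% array and the baseline array. These were AFT1 itself and CDA2 and YCR108C, already named above. Over all S. cerevisiae probe sets, 62.9% were identical in the 1% array and the baseline array.

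Other genes of iron handling were read from 7 further lists of 55 genes, each measured by 1 probe set. In the 10% array 24 were higher than in the baseline array, 15 identical and 16 lower, with a median difference of 0. This split was near that of all S. cerevisiae probe sets (45.1%, 27.7% and 27.2%). With centred arrays 19 were higher and 36 lower (31.9% and 67.5% of S. cerevisiae probe sets). Of the 55, 2 passed 0.1 upward (9.49% of S. cerevisiae probe sets), 5 passed it downward (8.09%) and 0 reached 2-fold. With centred arrays 8 passed 0.1 downward (11.1% of S. cerevisiae probe sets).

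Both of those higher genes belong to iron sensing and passed 0.1 under the 3 rescaled settings too. GRX3, which encodes a monothiol glutaredoxin that takes part in turning Aft1 off when iron is plentiful, was at 12.59 without spike, 12.63 at 1% spike and 12.78 at 10% spike. AFT2, which encodes the paralog of Aft1, was at 8.81 without spike, 8.85 at 1% spike and 8.96 at 10% spike. The 10% array thus exceeded the baseline array by 0.20 for GRX3 and by 0.15 for AFT2, beside 0.28 for AFT1. Among S. cerevisiae probe sets of like level 0.654% were as high as GRX3 and 4.02% as high as AFT2. In either direction 1.31% differed by as much as GRX3 and 16.7% by as much as AFT2. Both genes were singled out as the 2 of 55 that passed 0.1 upward, a choice that favours small shares. AFT2 was dim, above 11.5% of S. cerevisiae probe sets without spike. Of the 6 sensing genes 4 were higher, 1 identical and 1 lower in the deposited values (45.1%, 27.7% and 27.2% of S. cerevisiae probe sets), and 3 were higher and 3 lower with centred arrays. The other 4 differed little, with GRX4 at 0.045, YAP5 at 0.022, BOL2 at 0 and FRA1 at -0.016.

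The 8 genes listed as ferric reductases ranged from 4.34 for FRE5 to 10.25 for FRE6 without spike. Of the main surface reductase genes, FRE1 was at 9.99 in all 3 arrays and FRE2 at 8.22 without spike and 8.27 in both spiked arrays. At 10% spike FRE8 differed by -0.30 and FRE7, a copper-regulated reductase gene, by 0.098. FRE8 was dim, at 7.72 without spike, where 13.6% of probe sets of like level differed by as much in either direction.

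The 8 genes of vacuolar and low-affinity metal transport ranged from 10.92 for CCC1, the vacuolar iron importer gene, to 12.38 for COT1, a vacuolar zinc and cobalt transporter gene. FTH1, which encodes the vacuolar relative of Ftr1, differed by 0.098 at 10% spike and SMF2, a manganese transporter gene, by 0.074. FET5, which encodes the ferroxidase partner of Fth1, was at 11.44 without spike, 11.48 at 1% spike and 11.44 at 10% spike. Among S. cerevisiae probe sets of like level 11.0% were as high as FTH1 at 10% spike, and 14.5% differed by as much in either direction.

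Copper supply serves the Fet3 protein, which needs copper to work. Its 6 genes ranged from 9.53 for CTR3 to 12.25 for CTR1, both genes of plasma membrane copper transporters. ATX1, a copper chaperone gene, differed by -0.12 at 10% spike and CTR2, a vacuolar copper transporter gene, by 0.06. The copper pump gene CCC2, whose product loads copper onto Fet3 in the secretory pathway, was at 10.69 in all 3 arrays.

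Iron sparing and recycling, with 8 genes, ranged from 4.83 for LSO1 to 12.46 for VHT1, a biotin transporter gene, and its largest differences at 10% spike were -0.32 for LSO1 and -0.17 for BIO5, a gene for uptake of a biotin precursor. Both genes were dim, LSO1 lying above 0.764% of S. cerevisiae probe sets without spike and BIO5 above 4.80%. Iron-sulfur assembly, also with 8 genes, ranged from 10.10 for NBP35 to 12.98 for the scaffold gene ISU1, with differences of -0.094 for ISD11 and -0.09 for the frataxin gene YFH1. The 11 iron-using enzymes ranged from 7.39 for CTA1, the peroxisomal catalase gene, to 14.40 for ACO1, the aconitase gene, with differences of -0.39 for CTA1 and -0.085 for RIP1, the Rieske protein gene. CTA1 was dim, above 5.06% of S. cerevisiae probe sets without spike, and 8.90% of probe sets of like level differed by as much in either direction.

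**Figure D4:**
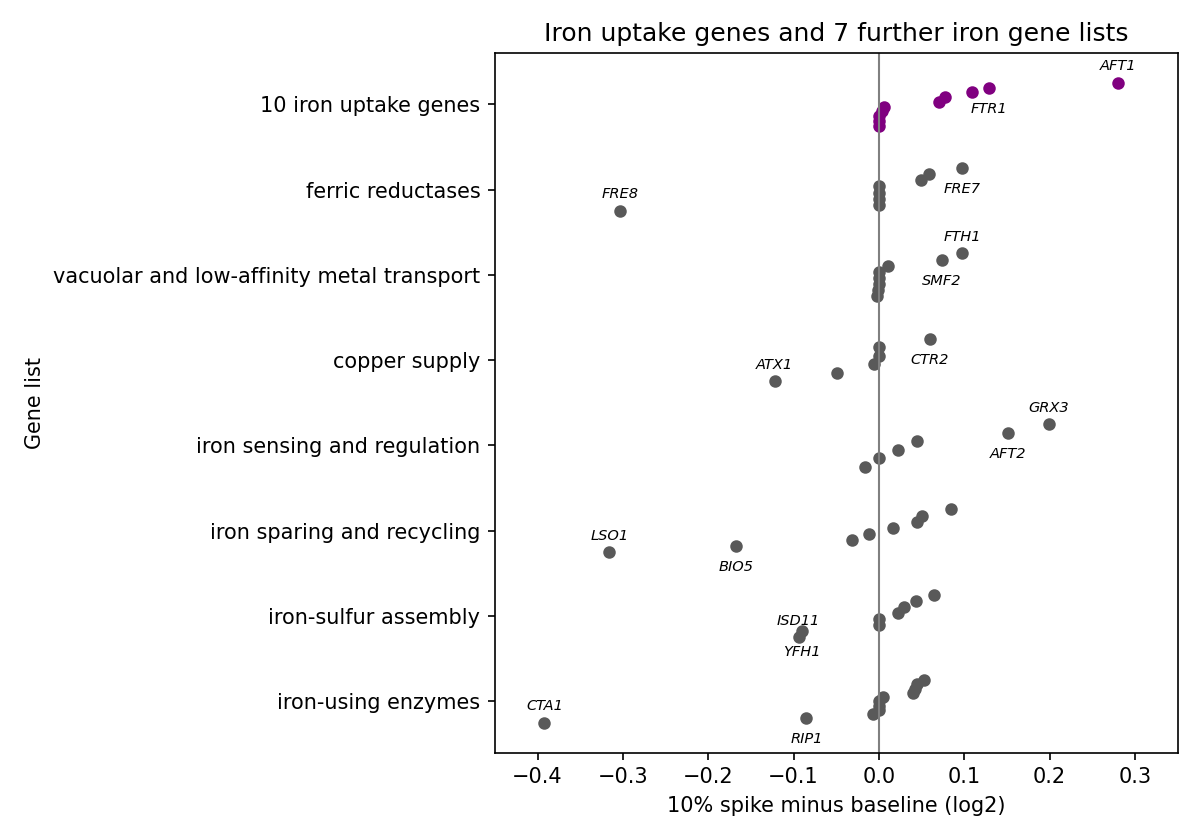
Difference between the 10% array and the baseline array (log2), 1 point per gene, for the 10 iron uptake genes (purple) and 7 further iron gene lists (grey); points of a list are spread vertically in order of their value, and the 2 genes farthest from 0 in each list are named. AFT1 at 0.28 and GRX3 at 0.20 are the highest points, and CTA1 at -0.39, LSO1 at -0.32 and FRE8 at -0.30 the lowest.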

How the data were processed

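RNA labelled with biotin was measured on 3 arrays, 1 per group. The authors deposited log2 levels, 1 for each probe set on each array, made with RMA (background correction, equalized distributions, median polish), per the submitters' processing notes. No label states the scale; log2 was inferred from what RMA normally gives and from values of 3.47 to 15.13. Equalized distributions can hide a shift common to most transcripts, and median polish over 3 arrays can return exactly equal values. The number of arrays limits the precision, and no count or depth lies behind a value.

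Platform symbols named the genes. Through gene identifiers 5498 probe sets matched S. cerevisiae assembly R64, which changed 12 symbols, FRA2 to BOL2 among them. The 166 control probe sets were kept apart. No coordinates are given, since the sources name no build. Differences were taken per probe set and rounded to 3 decimals, with Python 3.11.15, pandas 2.3.3 and statsmodels 0.14.6 (loess). Counting was tested on simulated data. Members at or past 2-fold were counted, and those at or past 0.1 as a description. In the further lists the highest and lowest level and the 2 largest 10% minus baseline differences were named; FRE1, FRE2, FET5, CCC2, GRX4, YAP5, BOL2 and FRA1 were added after their values were seen. The members and lists were chosen with earlier results of these data known.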

Additional observations from a re-analysis of the deposited data

How the results depend on the processing

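The results were recomputed after quantile normalization over again, with arrays centred on the S. cerevisiae median, with the loess trend with level removed, with updated symbols, with probe sets averaged per gene, without probe sets that can match several transcripts, and at 1.5-fold. Updated symbols, averaging and leaving out sets that can match several transcripts could not change a member's value, since each member had 1 probe set and none was of that kind. The 0 members at 2-fold stayed 0 at 1.5-fold in the 3 comparisons. The place of the 4 siderophore genes below both reductive genes could not change under the settings tried for levels. Percentiles and quantile normalization over again keep the order of probe sets within an array. The AFT1 difference in 10% minus baseline ran from 0.248 to 0.28, that of FTR1 from 0.103 to 0.129 and that of SIT1 from 0.076 to 0.109, so that 2 in place of 3 members were higher by 0.1 or more in the 3 rescaled settings. The median of the 10 genes was 0.021 after quantile normalization over again, 0.0115 with centred arrays and 0.0265 with the trend removed, where the median of all S. cerevisiae probe sets was -0.013, -0.026 and -0.006. Taking all non-control probe sets as background put 3.91% in place of 0.746% higher by 0.1 or more at 1% spike. That background also holds probe sets without an S. cerevisiae gene name. Its highest difference at 1% spike was 9.703, against 0.245 among S. cerevisiae probe sets. No paired analysis was possible because each group was 1 array. At 1 array per group no member's difference, that of AFT1 included, can be told from variation between arrays.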
